A study of Mus musculus with 33 samples.

Results

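dK9.1 and dK9.2 are 2 mouse embryonic stem cell (ESC) clones that carry the same homozygous CRISPR/Cas9 deletion, and they were compared here with each other before differentiation. The comparison rests on 6 of the 33 libraries of the series, the 3 day 0 replicates of each clone. The deletion removed the H3K9me3-marked segment between the enhancer and the promoter of Nanog, on chromosome 6, from E14Tg2a cells, a male-derived ESC line grown in serum and LIF. E14Tg2a itself, which does not carry the deletion, was sequenced beside the clones in 3 day 0 replicates. All 3 lines were then differentiated as embryoid bodies without LIF and sequenced on days 4, 6 and 8. Each clone had 3 replicates at the first and last of these times and 2 at the middle one. By the paper's methods, aggregates were on untreated dishes to day 4 and then replated on gelatin, so that the culture format changed before days 6 and 8. Each of dK9.1 and dK9.2 is 1 picked clone, so the replicates measure the spread within a clone. Both carry the deletion, so a difference between them does not measure its effect. What else sets 2 clones of one culture apart was not tested.

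H3K9me3 is a repressive histone mark, and in ESCs it covers retrotransposons, imprinted control regions and clusters of zinc finger genes. Many of these sites are recognised by KRAB zinc finger proteins, which recruit the corepressor TRIM28. Genes of the germline, imprinted genes and genes of the 2-cell-like state are among those known to be expressed unevenly between ESC cultures.

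Levels are given in TPM, transcript abundance scaled to a fixed total per library, and differences are dK9.1 minus dK9.2 in log2(TPM + 1), a scale on which low genes appear to change less than they do. A gene was called where limma gave an adjusted p below 0.05 and the difference exceeded 0.3. On day 0, 275 of 14504 tested genes were called, which is 1.9%. Of these, 145 were higher in dK9.1 (1% of the genes tested) and 130 were lower (0.896%). The typical difference was small, with a median size of 0.177 over all genes, beside a median standard deviation between replicates of 0.148 in dK9.1 and 0.166 in dK9.2. Same-numbered replicates of the clones deviated together, so the replicate number was also fitted as a block. With the block, 1545 genes were called (10.7%), 865 higher and 680 lower in dK9.1, and they included all 275. Counts with the block in gene lists are to be read beside this 10.7%. The unblocked count depended on single libraries. It was 104, 5 or 3 without replicate 1, 2 or 3 of dK9.1, and 0, 30 or 41 without replicate 1, 2 or 3 of dK9.2. At the count of 0, limma still gave 2014 genes an unadjusted p below 0.05. In all 275 genes the day 0 libraries of the clones did not overlap. Leaving out a library could therefore not change their sign, and that all 275 kept it in these fits adds nothing.

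The exact permutation test on libraries (two-sided, smallest possible p = 0.1) gave p = 0.1 for the share of TPM in histone genes and 0.2 to 0.7 for 5 other library measures. Core pluripotency RNA was high in each, with Pou5f1 at 1336, 1264 and 1500 TPM in dK9.1 and at 1674, 1652 and 1865 TPM in dK9.2. The summed level of 19 markers of primitive and visceral endoderm was highest in replicate 1 of each line. It was 1049 TPM there against 899 and 958 TPM in the other replicates of dK9.1, 1171 against 841 and 881 TPM in dK9.2, and 1652 against 832 and 806 TPM in E14Tg2a. Gata6, one of these markers, was at 7.435 TPM in replicate 1 of dK9.2 against 0.297 and 0.5235 TPM in its replicates 2 and 3. In E14Tg2a the same gene was at 11.8, 0.938 and 2.08 TPM, and in dK9.1 at 1.16, 0.417 and 0.221 TPM. None of the 16 tested endoderm markers was called, and their median difference of -0.43 was 0.04 without replicate 1 of all lines. Leaving out replicate 1 of all lines left 67 calls without the block. With the block it left 634 of 14273 genes, 299 higher and 335 lower in dK9.1. Of 67 named genes, 31 lost their call without the block and 1 gained one, or 6 and 4 with it. The 48 of them called on day 0 kept their sign, as they must where the clones do not overlap. Another 3 that were not called (Dppa3, Necap1 and Def6) changed it.

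The genes lowest in dK9.1 included a gene family on the X chromosome. Xlr genes are X-linked, related to a component of the synaptonemal complex of meiosis, and mainly known from germ cells and lymphocytes. Xlr5a was at 2.28, 0.264 and 0.143 TPM in dK9.1 and at 10.7, 11.8 and 8.75 TPM in dK9.2. Xlr3b was at 3.12, 0.373 and 0.486 TPM in dK9.1 and at 12.1, 12 and 10.8 TPM in dK9.2. In both genes the libraries of the clones did not overlap, and replicate 1 was the highest of the dK9.1 libraries. The difference was -2.76 ± 0.374 (SE, n = 3 and 3) for Xlr5a (limma, adjusted p = 0.0193) and -2.63 ± 0.472 for Xlr3b (limma, adjusted p = 0.0359). All 9 measured Xlr genes were lower in dK9.1 in their mean, with a median of -2.27. Of these, 6 were called (Xlr3b, Xlr3c, Xlr4b, Xlr5a, Xlr5b and Xlr5c), and all 9 were called with the block. The family was singled out after its values were seen. Its members are near-identical copies, so how reads were divided among them is uncertain, and the annotated span of Xlr5a (mm10 chromosome X, 73107635 to 73292976, minus strand) overlaps those of its neighbours.

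**Figure D1:**
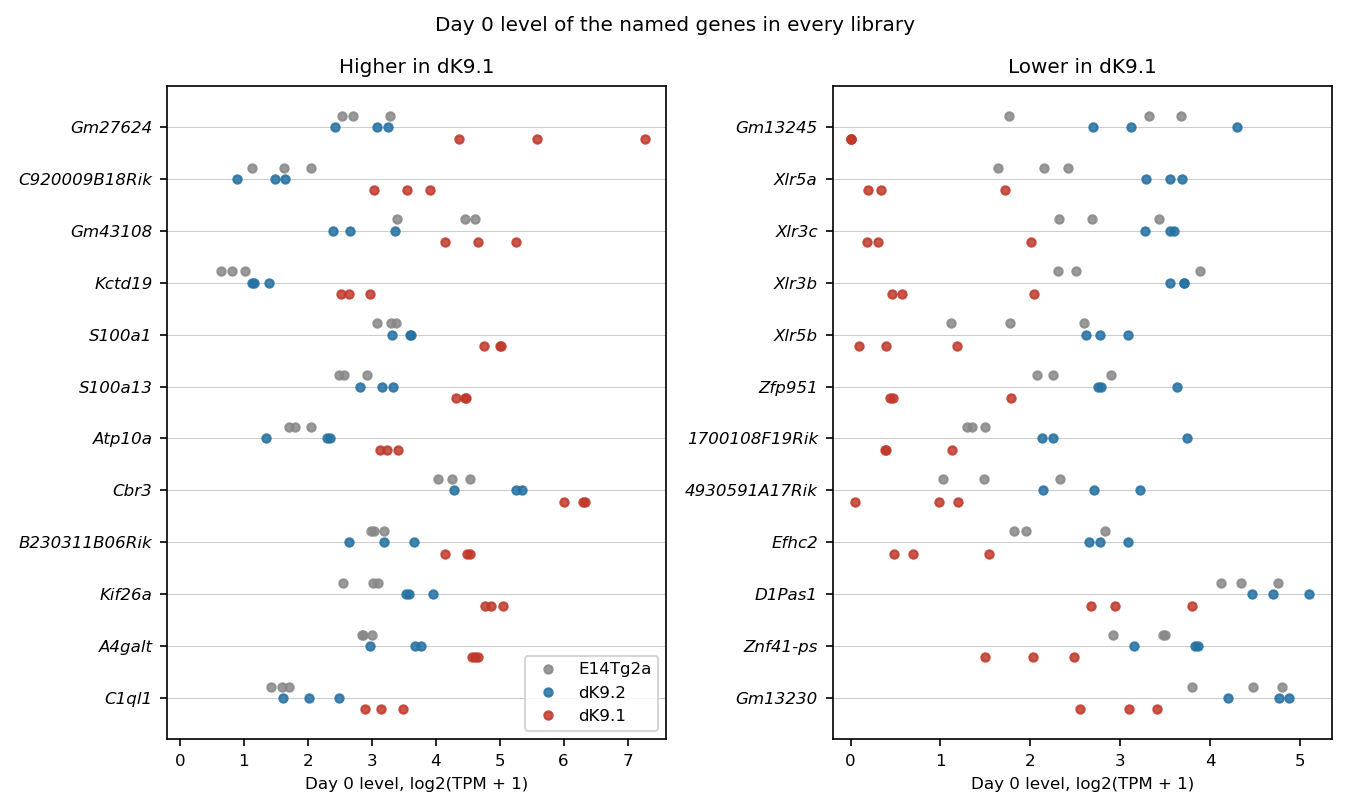
Day 0 level of the 12 genes with the largest called difference in each direction, in log2(TPM + 1) on the horizontal axis, with 1 point per library of E14Tg2a (grey), dK9.2 (blue) and dK9.1 (red). The genes were picked for dK9.1 points that lie apart from the dK9.2 points. The E14Tg2a mean lies beyond dK9.1 in none of them, and for the lower genes it lies mostly between the clones.

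Clusters of zinc finger genes, many of which encode KRAB proteins, held a share of the lower genes. In a window of chromosome 4 whose first and last tested genes start at 145213463 and 147985788 (mm10), 45 of 55 tested genes had a negative difference, 13 were called lower and 1 higher, and the median was -0.735. In a window of chromosome 2 with gene starts from 174076308 to 177935993, 6 of 52 were called lower and the median was -0.266. Both windows were placed after the called genes were seen. Gm13230, a predicted gene in the chromosome 4 window, was at 9.6, 4.84 and 7.55 TPM in dK9.1 and at 28.4, 17.4 and 26.3 TPM in dK9.2. Zfp991, a zinc finger gene of the same window, was at 13.8, 6.36 and 7.28 TPM in dK9.1 and at 32.3, 19.4 and 29.5 TPM in dK9.2. The clones did not overlap in either gene. Gm13245 was listed at 0 in all 3 libraries of dK9.1, against 7.7, 5.48 and 18.6 TPM in dK9.2. These clusters also hold similar copies, with the same uncertainty in the assignment of reads. Over all genes named Zfp, a list added after the called genes were seen, 11 of 361 were called lower and 1 higher, and the median was -0.0599. With the block 42 were lower and 18 higher, beside 680 and 865 of all 14504 tested genes. Without replicate 1 of all lines these were 25 and 2, beside 335 and 299 of 14273. Elsewhere in the genome, Zfp951 on chromosome 5 was at 2.44, 0.384 and 0.353 TPM in dK9.1 and at 11.4, 5.92 and 5.71 TPM in dK9.2, and Zfp640 on chromosome 13 at 6.17, 3.71 and 4.84 against 19, 12.9 and 16 TPM.

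Trim28 and Zfp57 were lower in dK9.1 as well. TRIM28 is the corepressor of KRAB zinc finger proteins, and ZFP57 is the zinc finger protein that keeps methylation at imprinted control regions. Trim28 was at 796, 764 and 821 TPM in dK9.1 and at 1066, 967 and 1058 TPM in dK9.2, a difference of -0.37 ± 0.0753 (limma, adjusted p = 0.044). Zfp57 was at 214, 207 and 212 TPM in dK9.1 and at 298, 274 and 261 TPM in dK9.2, a difference of -0.40 ± 0.0795 (limma, adjusted p = 0.044). Neither gene overlapped between the clones. Both calls were near the threshold: Trim28 lost its call after rescaling by median ratios (limma, adjusted p = 0.055), and in the fit to all 33 libraries neither was called (limma, adjusted p = 0.187 and 0.484). They were the 2 called members among 13 tested genes of DNA methylation, whose median was -0.131 beside 0.0284 over all genes.

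Of the germline genes controlled by DNA methylation, 15 of 20 had a negative difference and 1 was called. Hormad1, a component of meiotic chromosome axes, was at 10.4, 5.48 and 6.53 TPM in dK9.1 and at 29, 17.5 and 25.5 TPM in dK9.2, with no overlap. Its difference was -1.57 ± 0.237 (limma, adjusted p = 0.0208). With the block 6 of the 20 were called, all lower, namely Dazl, Mael, Hormad1, Tuba3a, Tuba3b and Zcwpw1, and without replicate 1 of all lines 4 were called lower and 1 higher with the block. Outside that list, D1Pas1, an RNA helicase of the testis, was at 12.9, 6.68 and 5.39 TPM in dK9.1 and at 33.3, 25 and 21.1 TPM in dK9.2. Rhox5, an X-linked homeobox gene, went the other way in its values, 315, 391.9 and 405 TPM against 67.1, 189 and 172 TPM, and was not called (limma, adjusted p = 0.166). Of the 13 tested genes of the 2-cell-like state, all had a negative difference, with a median of -1.08. None was called without the block and 9 with it, or 5 with it when replicate 1 of all lines was left out. Among the 9 was Zscan4c, at 2.54, 0.373 and 0.883 TPM in dK9.1 and 13.3, 2.64 and 4.5 TPM in dK9.2. Replicate 1 was the highest library of both clones for Zscan4c, and the clones' ranges did not overlap. Histone genes of the replication-dependent clusters had a median of -0.55, with 1 of 47 called, or 9 with the block, and without replicate 1 of all lines 1 with the block. Their transcripts mostly lack poly-A tails, and the libraries were poly-A selected.

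The promoter of Hormad1 is shown because promoters of methylation-controlled germline genes are known to hold E-boxes and E2F-type motifs. The window runs from 250 bases before to 50 bases after the start of transcription in RefSeq (GRCm38.p6, the build also called mm10), at chr3:95559427-95559726 on the plus strand. Capitals mark CACGTG, the E-box, and GCGGGA, the reverse complement of TCCCGC.

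Hormad1: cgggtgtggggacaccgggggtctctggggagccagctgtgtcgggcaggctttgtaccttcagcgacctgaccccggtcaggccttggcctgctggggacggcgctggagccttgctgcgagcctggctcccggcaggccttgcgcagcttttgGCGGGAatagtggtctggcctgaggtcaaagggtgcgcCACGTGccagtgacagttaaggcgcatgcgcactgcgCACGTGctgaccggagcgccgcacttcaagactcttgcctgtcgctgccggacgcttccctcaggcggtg

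Both strands were searched, the marked motifs do not overlap, and of 2 nearly identical windows of the gene the first is shown. CACGTG stood in 7.15% of 32817 promoter windows of this length, TCCCGC in 20% and both in 1.99%. A match is a description of the letters and not a measured site.

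Imprinted genes are expressed from 1 parental copy, and 35 of the 45 listed were tested. On day 0, 5 were called lower in dK9.1 (Rian, Mirg, Snrpn, Impact and Zrsr1) and 1 higher (Phlda2), beside 0.896% and 1% of all tested genes. With the block 10 were lower and 5 higher, beside 680 and 865 of 14504 tested genes. Without replicate 1 of all lines these were 8 and 2, beside 335 and 299 of 14273. Rian and Mirg are noncoding RNAs of the Dlk1 to Dio3 region, expressed from the maternal copy. Rian was at 138, 107 and 105 TPM in dK9.1 and at 219, 243 and 242 TPM in dK9.2, a difference of -1.01 ± 0.122 (limma, adjusted p = 0.0148). Meg3, of the same region, was at 139, 92.7 and 72.1 TPM against 197, 199 and 164 TPM, and was called only with the block (limma, adjusted p = 0.00788, and 0.065 without it). Snrpn, which encodes a spliceosomal protein and is expressed from the paternal copy, was at 73.6, 66.9 and 60.9 TPM in dK9.1 and at 120, 121 and 134 TPM in dK9.2. Zrsr1, a paternally expressed gene related to the splicing factor U2AF, was at 11.9, 7.62 and 8.98 TPM against 19.2, 23.3 and 19.7 TPM. The clones did not overlap in any of these 4 genes. Snurf, which shares its transcript with Snrpn, was at 46.9, 101 and 0.199 TPM in dK9.1, a spread that leaves the division of reads between the pair uncertain.

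The promoter windows of Snrpn and Grb10 are shown because the difference of both genes recurred on later days, as described further on. RefSeq gives Snrpn 4 such windows and Grb10 2, and the 1 window of each gene that holds TGCCGC or its reverse complement GCGGCA, the letters that ZFP57 is known to bind when methylated, was picked for that match. Capitals mark the match. The Snrpn window lies at chr7:60005150-60005449 and that of Grb10 at chr11:12037371-12037670, both on the minus strand (RefSeq, GRCm38.p6).

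Snrpn: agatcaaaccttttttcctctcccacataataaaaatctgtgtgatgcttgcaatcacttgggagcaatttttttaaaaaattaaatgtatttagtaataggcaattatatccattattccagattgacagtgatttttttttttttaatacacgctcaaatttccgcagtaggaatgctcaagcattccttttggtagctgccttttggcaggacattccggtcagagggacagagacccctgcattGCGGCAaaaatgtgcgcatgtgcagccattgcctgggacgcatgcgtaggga

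Grb10: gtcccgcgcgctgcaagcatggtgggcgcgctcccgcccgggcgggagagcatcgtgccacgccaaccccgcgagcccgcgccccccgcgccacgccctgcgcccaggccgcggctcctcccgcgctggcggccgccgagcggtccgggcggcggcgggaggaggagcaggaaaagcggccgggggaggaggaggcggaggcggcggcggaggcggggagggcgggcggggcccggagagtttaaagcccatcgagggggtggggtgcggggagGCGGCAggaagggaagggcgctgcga

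Both strands were searched. Of all promoter windows, 11.6% hold a match, and since the windows were picked for it, nothing follows from its presence. The only window of Zrsr1 held none, which says only that these letters are not in it.

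Of 10 core pluripotency genes, 2 were called, both lower in dK9.1. With the block 5 were called, all lower, with Pou5f1 (-0.34), Tdgf1 (-0.36) and Dppa5a (-0.37) beside them. The 2 were Trim28, given above, and L1td1, an RNA-binding protein gene, at 303, 328 and 340 TPM against 409, 426 and 425 TPM. Klf2, a transcription factor of the naive state, was the 1 called gene of 16 naive genes, at 268, 253 and 276.5 TPM in dK9.1 and at 183, 176 and 191.5 TPM in dK9.2. Its difference was 0.53 ± 0.0757 (limma, adjusted p = 0.0193). With the block 2 naive genes, Klf5 and Tbx3, were called lower as well. None of 10 formative genes was called, or 1 with the block, Foxd3 (-0.73), near the 10.7% of all tested genes. Nanog, at the deleted locus, was higher in each dK9.1 library than in any dK9.2 library, but its difference of 0.14 ± 0.0664 was not called (limma, adjusted p = 0.288). None of the 6 genes listed around it was called, and Foxj2 had the largest difference of them, 0.51 ± 0.179, at 3.18, 3.46 and 2.84 TPM against 1.79, 2.32 and 1.65 TPM. Myc, the proliferation-linked transcription factor, was chosen after its values were seen. It was at 6.57, 7.08 and 6.41 TPM in dK9.1 and at 17.1, 18.5 and 14 TPM in dK9.2, a difference of -1.18 ± 0.133 (limma, adjusted p = 0.0124).

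S100a1 and S100a13 are neighbouring genes of calcium-binding proteins on chromosome 3. S100a1 was at 31, 31.6 and 26.1 TPM in dK9.1 and at 8.92, 11.1 and 11.2 TPM in dK9.2, and S100a13 at 20.9, 21.2 and 18.9 TPM against 6.05, 7.91 and 9.02 TPM. Cbr3, a carbonyl reductase, was at 63.2, 78.1 and 80 TPM against 18.6, 39.8 and 37.2 TPM, and it stood beside Cbr1, which was also called higher. A4galt, a glycosyltransferase of globoside synthesis, was at 23.5, 24.3 and 22.8 TPM against 6.81, 12.6 and 11.8 TPM. Among the called genes higher in dK9.1, the noncoding gene Gm27624 had the largest difference, 2.82 ± 0.591, with uneven replicates in dK9.1 at 154, 19.5 and 46.7 TPM against 8.56, 7.48 and 4.36 TPM. It had the opposite sign on day 4, with a value of -1.52, and was not called there. The other genes at the top were C920009B18Rik, Gm43108, Kctd19, Atp10a, B230311B06Rik, Kif26a and C1ql1, with differences between 1.14 and 2.16. At the lower end, 1700108F19Rik, 4930591A17Rik, Efhc2 and Znf41-ps completed the list of 12, with differences between -2.07 and -1.615.

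Among signalling and metabolic lists, genes of cholesterol and fatty acid synthesis had a median of 0.207, with 23 of 25 positive. Among those called was Scd1, the stearoyl-CoA desaturase, at 52.6, 56.4 and 49.7 TPM in dK9.1 and at 32.7, 40.6 and 32.8 TPM in dK9.2. With the block 6 were called, all higher. Bmp7, a BMP ligand, was called higher (1.13 ± 0.185), as 1 of 9 genes of its list, which had a median of 0.462 with 6 positive. Spry2, a feedback inhibitor of FGF signalling, was called lower (-0.69 ± 0.139), as 1 of 13, and Asns, the asparagine synthetase, was called lower (-0.42 ± 0.0677), as 1 of 26 genes of amino acid stress. No gene was called among 10 WNT targets, 18 targets of p53, 25 genes of glycolysis and hypoxia or 16 genes of polycomb complexes. With the block 1, 5, 1 and 3 were, beside 10.7% of all tested genes. The WNT targets had a median of 0.327, with 8 positive. No cytosolic ribosomal protein gene of 75 was called with or without the block.

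**Figure D2:**
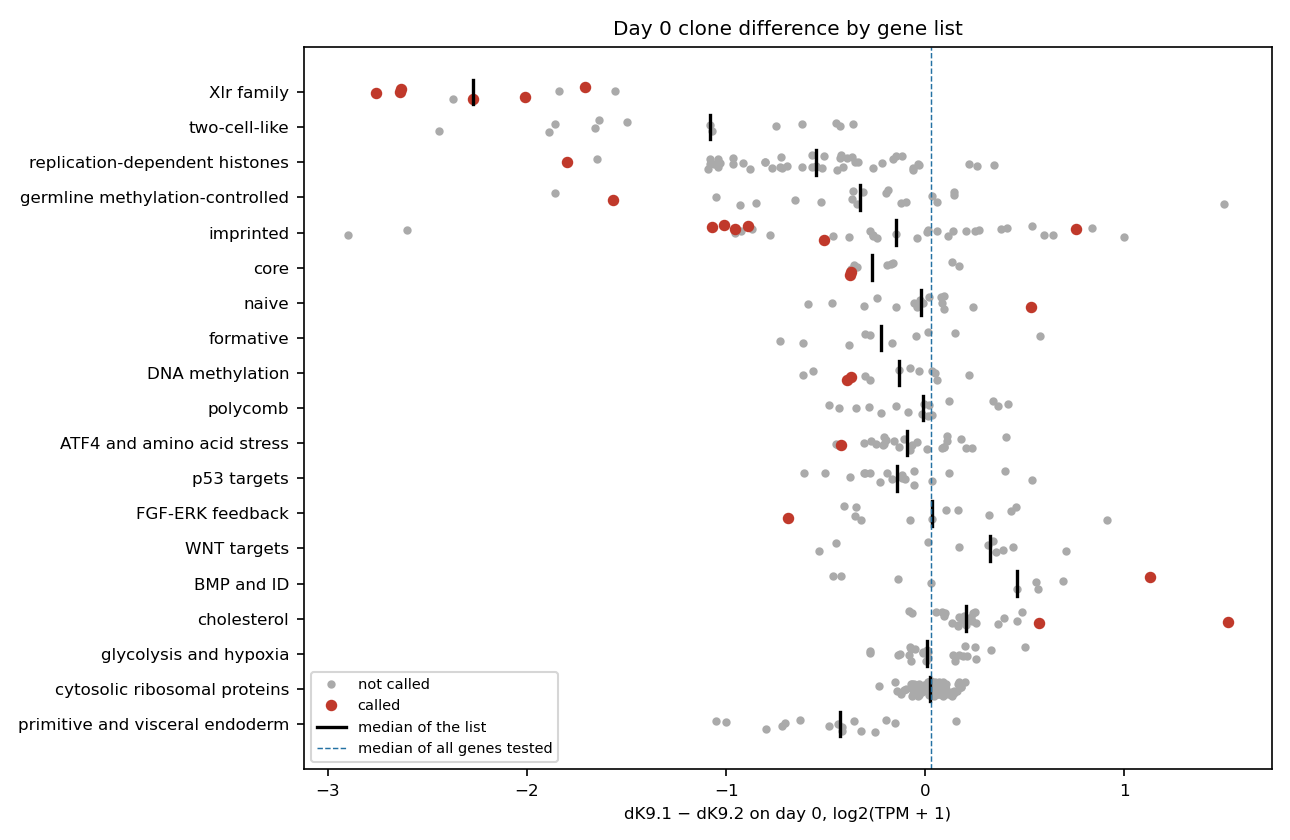
Day 0 difference, dK9.1 minus dK9.2 in log2(TPM + 1), of each tested member of 19 gene lists, with called members in red, the others in grey, the median of each list as a black bar and the median of all genes as a dashed line. The Xlr, 2-cell-like and histone lists lie mostly to the left, as does the endoderm list (median -0.428, or 0.0427 without replicate 1 of all lines). The cholesterol list lies mostly to the right, with a median of 0.207, and the smaller BMP and WNT lists have medians of 0.462 and 0.327.

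The level in E14Tg2a was set beside the clones. The called genes were chosen for a wide gap between the clones in the same libraries, which by itself makes it likelier that another line falls between them, so that the shares given here for called and for all genes are not like for like. In all 275 called genes the mean of E14Tg2a lay either between the clones (117 genes) or beyond dK9.2 (158 genes), and in 0 of 275 did it lie beyond dK9.1. A mean between the clones can be nearer dK9.1, as for Gm43108. That gene was at 20.9, 23.4 and 9.57 TPM in E14Tg2a, 24.4, 37.1 and 16.7 TPM in dK9.1 and 5.314, 4.285 and 9.335 TPM in dK9.2. Over all tested genes E14Tg2a lay beyond dK9.1 in 2742, which is 18.9%. Of the 184 genes called without E14Tg2a in the fit, 1 had E14Tg2a beyond dK9.1, and of the 1545 called with the block, 25 did. Among the genes higher in dK9.1, dK9.2 lay between E14Tg2a and dK9.1 in 112 of 145, a position held by 53% of all tested genes. Among those lower in dK9.1, E14Tg2a lay between the clones in 84 of 130, beside 27.9% of all tested genes, and dK9.2 was then the highest of the 3 lines. Over both directions the 158 genes with E14Tg2a beyond dK9.2 were 57.5% of the 275, near the share of all genes. These counts were not tested.

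On the later days no clone difference was called on day 4 or day 8 and 1 was called on day 6, the histone gene Hist1h4m (-1.44). That call rests on 2 against 2 libraries, and the gene was not tested on day 0, where its difference was 0. Unadjusted p-values below 0.05 numbered 833, 693 and 990 on days 4, 6 and 8, and with the block 4, 1 and 23 genes were called. The direction of day 0 mostly recurred on days 4 and 6. Of the 275 genes called on day 0, 79.6% had the same sign on day 4, 80.7% on day 6 and 60.7% on day 8, beside 61.1%, 63.5% and 56.4% of all tested genes. The genes were chosen for their day 0 difference, so that a smaller median at other times is in part fixed by the choice. For the 145 genes higher on day 0 the median went from 0.71 to 0.202, 0.351 and 0.113, and for the 130 lower genes from -0.901 to -0.235, -0.167 and 0.00257. The later libraries of the clones did not overlap, in the day 0 direction, for 52 of the 275 genes on day 4, beside 8.22% of all tested genes, which is 18.9% of the members. On day 6, with 2 against 2 libraries, this held for 118 genes (42.9%, beside 26% of all), and on day 8 for 16 genes (5.82%, beside 4.85%). The share on day 8 was thus near that of all genes.

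**Figure D3:**
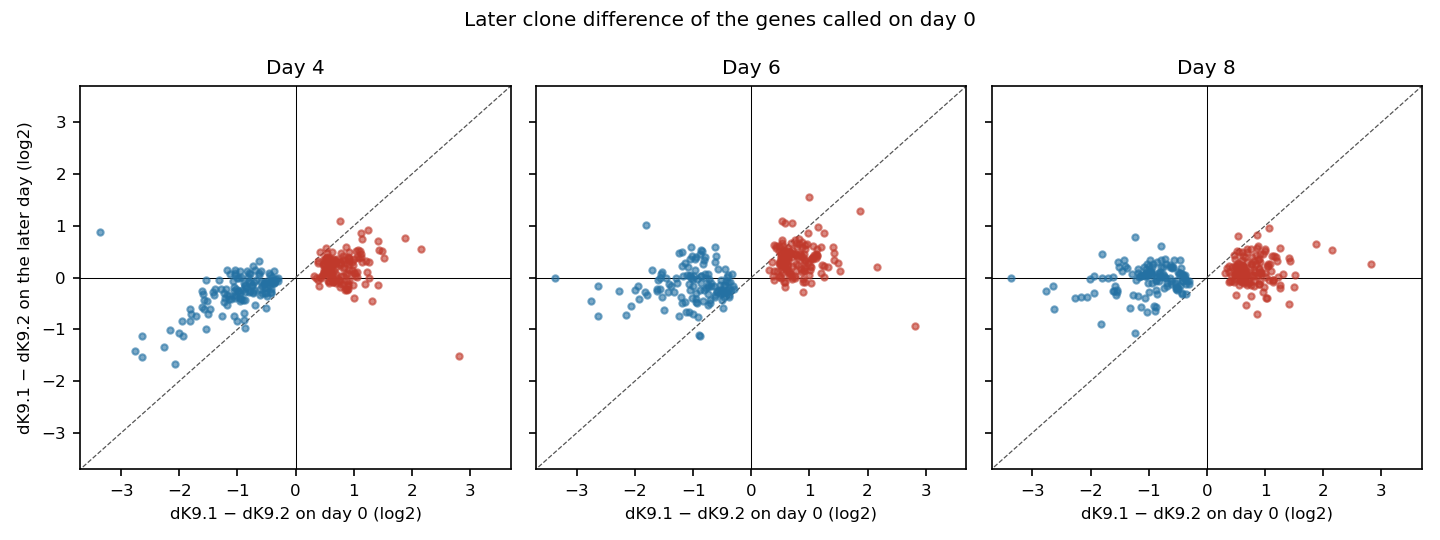
Difference between dK9.1 and dK9.2 in log2(TPM + 1) for the 275 genes called on day 0, with the day 0 value on the horizontal axis and the value on day 4, 6 or 8 on the vertical axis, red for genes higher and blue for genes lower in dK9.1 on day 0. The dashed line marks equal differences, and on day 8 the lower genes centre on 0.00257.

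Part of the lower genes were below 1 TPM later in both clones. On day 0 none of the 130 was under 1 TPM in both clones, while 14, 26 and 42 were on days 4, 6 and 8. Among the 145 higher genes, 4, 9 and 8 were under that level at these times. A change of the difference from day 0 to the mean of the 3 later days was called for 16 genes (0.0979% of 16336), of which 14 moved up and 2 down. Xlr5a, at 3.22, 3 and 1.91 TPM in dK9.2 on day 4 and 0.859, 0.0974 and 0.252 TPM in dK9.1, was under 1 TPM in each clone library on days 6 and 8. Xlr3c followed the same course. S100a13, far higher in dK9.1 on day 0, was at 7.72, 6.51 and 7.32 TPM in dK9.1 against 11.7, 9.51 and 9.43 TPM in dK9.2 on day 4, and at 6.64 and 5.35 against 5.06 and 5 TPM on day 6. Tmc7, of the transmembrane channel-like family, went from 8.35, 7.33 and 7.06 TPM against 3.07, 3.65 and 3.32 TPM on day 0 to 5.01, 4.47 and 5.09 TPM against 6.5, 4.85 and 5.21 TPM on day 4. No such change was called with a pseudocount of 0.1 or a minimum of 5 TPM, and 141 were called with the block.

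On the mean of days 4, 6 and 8 the difference was called for 49 of 16336 genes (0.3%), 34 higher and 15 lower in dK9.1, and with the block for 269 (1.65%). With 1 clone library of these days left out, the count ran from 10 (without day 6 dK9.1 replicate 3 or day 6 dK9.2 replicate 2) to 148 (without day 8 dK9.1 replicate 1). Of the 48 that were tested on day 0, 46 had the same sign there, beside 65.1% of all tested genes, and 12 were called. Those 12 were Snrpn, Snhg14 and Zrsr1, which were lower, and Wtap, Mrpl43, Mrpl14, Ptch1, Svbp, 2310022A10Rik, Ssh1, Nanp and Cdk9, which were higher. With 1 day 0 library of a clone left out, 0 to 3 of the genes then called on day 0 were also called later. With the block 124 genes were called on both occasions, 122 in the same direction and 2 in the opposite one. Of the 275, 6 had clone libraries that did not overlap in the same direction on all 4 days (Xlr3b, Xlr5b, Zrsr1, Cdc20, Wtap and Pof1b), beside 44 of all 16336 genes. The 275 were chosen on their day 0 values, which are part of this criterion, so that these shares are not like for like.

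Snrpn lies beside Snhg14, the noncoding host of small nucleolar RNAs downstream of it, and both were lower in dK9.1 in their means on each day. Snrpn was at 201, 217 and 144 TPM in dK9.1 against 251, 369 and 375 TPM in dK9.2 on day 4, at 240 and 280 against 568 and 557 TPM on day 6, and at 125, 105 and 182 against 284, 175 and 187 TPM on day 8. The clones overlapped on day 8 only. The later difference was -0.86 ± 0.13 for Snrpn and -0.89 ± 0.136 for Snhg14 (limma, adjusted p = 0.00301 for each). Mkrn3, a further paternally expressed gene of the locus, was called later (-0.57, limma, adjusted p = 0.0497). Its neighbour Ndn, also paternally expressed, was not called later (-0.26, limma, adjusted p = 0.686), nor was Snurf (0.30, limma, adjusted p = 0.953) or Ube3a, which is biallelic in most tissues (-0.02, limma, adjusted p = 0.957). Zrsr1 differed by -0.61 ± 0.101 later (limma, adjusted p = 0.00606). It was at 9.16, 7.62 and 5.85 TPM in dK9.1 against 13.4, 11.8 and 14.5 TPM in dK9.2 on day 4 and did not overlap on any day.

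Wtap, a subunit of the complex that writes N6-methyladenosine on RNA, was at 186, 199 and 209 TPM in dK9.1 and at 121, 148 and 156 TPM in dK9.2 on day 0. On day 8 it was at 103, 125 and 107 TPM against 95.1, 85.2 and 81.7 TPM, and the later difference was 0.35 ± 0.0578 (limma, adjusted p = 0.00606). Its day 0 call was lost after rescaling (limma, adjusted p = 0.088), while the later call was kept. Cdc20, the activator of the anaphase-promoting complex, was lower in dK9.1 on all days, from 144, 151 and 152 TPM against 207, 192 and 203 TPM on day 0 to 218, 182 and 169 TPM against 233, 237 and 230 TPM on day 8. Of 80 tested genes of mitochondrial ribosomal proteins, a list added after its members were seen, 2 were called higher on day 0 and 4 on the later mean (Mrpl14, Mrpl43, Mrpl46 and Mrps2). Mrpl43 was at 97, 108 and 116 TPM in dK9.1 against 69.9, 80.1 and 72.6 TPM in dK9.2 on day 0. The median of that list, 0.0409 on day 0, was close to that of all genes.

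Other genes were called on the later mean without a day 0 call. Grb10, an imprinted adaptor of growth factor receptors, was at 55.7, 65.9 and 75.3 TPM in dK9.1 against 32.2, 36.9 and 39.3 TPM in dK9.2 on day 0 (limma, adjusted p = 0.161). On day 8 it was at 344, 302 and 160 TPM against 98.5, 128 and 85.7 TPM, and it did not overlap on any of the 4 days. Kif1a, a neuronal kinesin, was below 3 TPM in all clone libraries on day 0, and on day 8 it was at 5.86, 4.42 and 9.02 TPM in dK9.1 and at 16.2, 15.8 and 23.3 TPM in dK9.2. Its later difference was -1.32 (limma, adjusted p = 0.00422). Pdgfc, a growth factor gene, and Mymx, which encodes a micropeptide of muscle cell fusion, were higher in dK9.1 by 0.89 and 1.05, as were Hsd3b7 (0.64) and Def6 (0.63). Gm48362, Gm38393, A630052C17Rik and Stat4 were lower, with later differences between -1.11 and -0.59. A change of the difference from day 0 was not called for any of these genes.

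**Figure D4:**
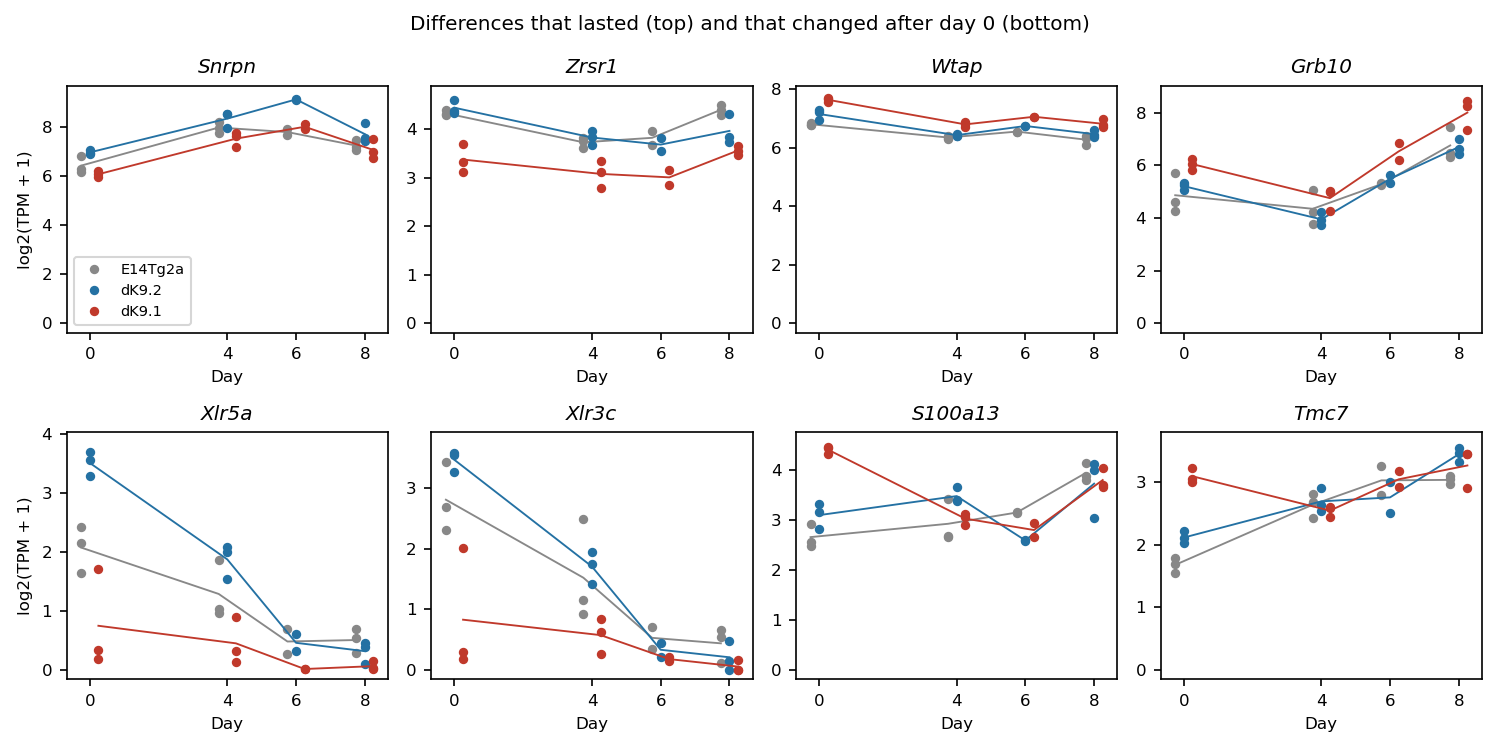
Level in log2(TPM + 1) against day for 8 genes, with 1 point per library and lines through the means of E14Tg2a (grey), dK9.2 (blue) and dK9.1 (red). In the upper row the dK9.1 and dK9.2 lines stay apart through day 8, and in the lower row they are farther apart on day 0 than on day 8.

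By chromosome, the median difference relative to the other chromosomes was at most 0.148 in size on every day. Chromosome 8 had 13 of 763 tested genes called higher (1.7%, beside 1% of all tested genes) and 2 called lower (0.262%, beside 0.896%) on day 0. Its relative median was 0.0724, 0.148, 0.0858 and 0.0317 on days 0, 4, 6 and 8, and the libraries of the clones overlapped on each day but day 6 (exact permutation test over libraries, two-sided, p = 0.3, 0.2, 0.3333 and 0.7). That test cannot give less than 0.1 with 3 against 3 libraries, and it does not use the pairing. Within same-numbered pairs, chromosome 8 was higher in dK9.1 in each pair on days 0, 4 and 6 and in 2 of 3 on day 8. On day 6 the replicate numbers showed no pairing over all genes. Chromosome 2 was also positive on each day, with relative medians of 0.0368, 0.0689, 0.0459 and 0.0349 on days 0, 4, 6 and 8. Its clones overlapped on day 0 only (exact permutation test, p = 0.2, 0.1, 0.3333 and 0.1, adjusted p at least 0.5). On day 0 the clones did not overlap for chromosomes 1, 4, 12, 13 and X, with relative medians of -0.0592, 0.00961, -0.013, -0.0514 and -0.0543 (exact permutation test, p = 0.1 and adjusted p = 0.4 for each). Chromosome 14 had the lowest relative median, -0.0807, with overlap. On the X chromosome 11 of 500 tested genes were called lower on day 0 (2.2%) and 2 higher (0.4%), and on chromosome 4, 22 of 934 were lower (2.36%) and 14 higher (1.5%). None of these shares was tested against the other chromosomes. Across genes, Spearman's correlation of the day 0 difference was 0.0737 with exonic length and 0.164 with GC content, over 14289 genes that share the same 6 libraries.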

How the data were processed

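The authors made stranded poly-A libraries from 3 assays in which the lines were differentiated in parallel. Per the methods and the submitters' processing notes, they mapped paired reads with STAR (genome mm10) and estimated abundance with RSEM. Versions and the annotation are not given in the sources used here. The deposited TPM were scaled by the authors within each library and cover 16336 genes in 33 libraries. TPM do not retain read numbers, so sequencing depth could not be read from them, and precision was taken from the replicates. A further 22 deposited columns hold the authors' own DESeq2 comparisons, log2 fold changes and adjusted p-values, and were not used.

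Tests were limma 3.58.1 (R 4.3.3, empirical Bayes with trend, Benjamini-Hochberg adjustment over all tested genes) on log2(TPM + 1). A gene was tested if the mean of any group reached 1 TPM. Genes without spread within any group were left out of a fit, which removed none from the fits reported first. Day 0 used the 9 day 0 libraries, and later days and the change from day 0 used all 33. Groups come from the sample titles. The alternatives were another pseudocount, other minimum levels, rescaling by median ratios, other sets of libraries, leaving out single replicates and the replicate block.

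Same-numbered day 0 replicates of dK9.1 and dK9.2 deviated from their group means with correlations of 0.259, 0.165 and 0.277 across genes, against -0.261 to -0.0221 for the other pairs. The numbers were therefore taken to pair the libraries, on the later days as well. On day 8 the same-numbered pairs had 0.265 to 0.402 and the others -0.374 to 0.112. On day 4 these ranges were 0.134 to 0.322 and -0.279 to 0.163, so that they overlapped. On day 6 no pairing was seen, with -0.0129 for the same-numbered pairs and 0.0129 for the others.

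Named genes were Nanog and its listed neighbours, the 12 largest called day 0 differences in each direction at 5 TPM or more with clones not overlapping, up to 10 that did not overlap on all days, up to 5 each way called for the change or for the later mean only, and up to 4 called per list. Other names were chosen after their values were seen. Members and lists were chosen with earlier results of these data known. Of 16336 gene names, 16078 were placed on the GENCODE mm10 annotation. The values of 1 called gene of a list are not reported here.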

Additional observations from a re-analysis of the deposited data

Results flagged for a closer look

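The difference between the clones changed from day 0 to a later time by limma's interaction test for 2 genes on day 6 (Gm7241 and Hist1h4m), 2 genes on day 8 (Gm13034 and Xlr5a) and 16 genes on the mean of days 4, 6 and 8. Among the named genes the change of the log2 difference was 2.46 for Gm49089, 2.16 for Xlr3c, 2.05 for Xlr5a, 1.74 for Rhox10 and 0.98 for Gm14409, all lower in dK9.1 on day 0. It was -1.37 for S100a13 and -0.99 for Tmc7, both higher in dK9.1 on day 0. limma's adjusted p-values of these 7 genes ran from 0.0155 (Gm49089) to 0.049 (Xlr3c). Gm49089, at 1.98, 0.242 and 0.386 TPM in dK9.1 and 18.9, 5.86 and 5.1 TPM in dK9.2 on day 0, and Rhox10 had no day 0 call (limma, adjusted p = 0.0591 and 0.057), but both were called with the replicate block (limma, adjusted p = 0.00208 and 0.0103). On days 4, 6 and 8 the means of both clones were at most 0.0835 TPM for Gm49089 and 0.417 TPM for Rhox10, so that on the log2(TPM + 1) scale their later difference was necessarily small. The changes of all 7 genes kept their call after rescaling and with the replicate block, and all 7 lost it with a pseudocount of 0.1 or a minimum of 5 TPM.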

How the results depend on the processing

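The day 0 count of 275 was 444 after rescaling by median ratios and 1545 with the replicate block. Without replicate 1 of all lines, chosen after seeing the data, it was 67, or 634 with the block. With 1 clone library left out it ran from 0 to 104, and with the block from 245 to 621 (455, 452 and 621 without dK9.1 replicate 1, dK9.2 replicate 2 and dK9.2 replicate 3). With the block, 4 genes were called on day 4, 23 on day 8, 269 on the later mean, and 15, 22, 156 and 141 for the change to day 4, day 6, day 8 and the later mean. Fits to the libraries of 1 day gave 1 gene on day 4 and 2 on day 6, and a fit to the later days 12 on their mean. A minimum of 5 TPM gave 0 on day 6 and 0 for the changes to day 6, day 8 and the later mean. A pseudocount of 0.1 gave 1 on day 8, 1 for the change to day 8 and 0 for that to the later mean, and rescaling 4 for the change to day 8. Leaving out 1 library gave 0 to 14 genes on day 4, 0 to 18 on day 6, 0 to 95 on day 8 and 10 to 148 on the later mean, and 0 to 1, 0 to 8, 1 to 26 and 1 to 38 for the changes. On day 6 this leaves 1 library of a clone, which is assumed to vary like the other groups. Of 67 named genes, the 48 called on day 0 kept the sign of their day 0 difference in these alternatives. Where libraries were left out it could not change, as the clones do not overlap in these 48. Another 6 that were not called changed sign in at least 1 alternative. Without replicate 1 of all lines, with or without the block, the day 0 difference was -0.24 for Dppa3, 0.041 for Necap1 and 0.11 for Def6. With 1 clone library left out it ran from -0.24 to 0.60 for Dppa3, -0.16 to 0.0060 for Gdf3, -0.22 to 0.011 for Apobec1, -0.11 to 0.083 for Necap1, -0.14 to 0.058 for Def6 and -0.42 to 0.035 for Kif1a. The relative median of chromosome 8 then stayed positive, from 0.0479 to 0.112, 0.109 to 0.219, 0.0774 to 0.0943 and 0.00287 to 0.052 on days 0, 4, 6 and 8. The cause of these moves was not tested.

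Among called genes with a day 0 difference over 1, 85.9%, 76.5% and 52.9% kept the sign on days 4, 6 and 8, and 1 was called later. Of all tested genes 61.1%, 63.5% and 56.4% kept it, so that the day 8 share was not above that of all genes. Leaving out 1 day 0 library gave 66.7% to 85.6% on day 4, 74% to 100% on day 6, 20% to 61.5% on day 8 (20%, 33.3% and 48.8% without dK9.1 replicate 2, dK9.1 replicate 3 and dK9.2 replicate 3, under an even split) and 60% to 80% on the later mean, with 0 to 3 called later, from as few as 3 genes. With the block 122 were called later in the same direction and 2 in the opposite one. Without dK9.2 replicate 1 no gene was called on day 0, so that no such share exists.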
